A study of Mus musculus with 20 samples.

Results

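Chemokines are small secreted proteins that attract leukocytes through G protein-coupled receptors on the cells they recruit. Injured muscle is a well known source of them: fibres, resident macrophages, fibroblasts and endothelium release CC and CXC chemokines, and neutrophils and then monocytes follow. Most are induced by inflammatory signals, whereas a few, such as Cxcl12, are made in resting tissue. The values below concern 10 chemokine genes, chosen by name, in the injected quadriceps of old mice: Ccl2, Ccl6, Ccl7, Ccl8, Ccl9, Ccl11, Cxcl1, Cxcl10, Cxcl12 and Cx3cl1. They are 10 of the 55416 genes listed in the deposited counts, and all 10 had enough counts to be tested.

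The 20 muscles came from male C57BL/6J mice of 26 to 28 months, fasted for 4 h and killed 3 h after a single injection of 50 µL into the right quadriceps. Control mice (n = 10, Control 1 to 10) received 0.9% saline, and secretome-treated mice (n = 10, Secretome 1 to 10) received a cell-free product made from the pooled culture medium of partially differentiated human embryonic stem cells. Every mouse was injected, so an uninjected muscle is not among the samples and what injection itself did to these genes cannot be told apart from their resting level. One cell line supplied the product. The counts come from bulk tissue, in which fewer cells of a type and less RNA per cell cannot be told apart.

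Each library held 13286983 to 22987237 counts on genes. Muscle fibre genes dominated every library: the summed level of 6 fibre markers, led by Myh4 (fast myosin), Acta1 (skeletal actin) and Ckm (muscle creatine kinase), was 58157 to 120360 CPM, where CPM is the read count scaled to a normalised library of 1000000 reads. The share of counts on Ttn (titin) followed the library numbers: 7.02% to 11.03% in libraries 1 to 5, which are all controls, 14.2% to 14.7% in libraries 16 to 20, which are all secretome-treated, and 16.4% to 21.1% in libraries 6 to 15, which hold 5 muscles of each treatment. The labels name no batch for these ranges. In libraries 1 to 5 and 16 to 20 the range and the treatment cannot be told apart, so the chemokines are also given within libraries 6 to 15. Control 3 stood apart from the other muscles in most of the chemokines, and the chemokines are given with and without it.

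Upstream sequence from RefSeq (GRCm38.p6) was at hand for 7 of the 10 genes. The 250 bases before the start of 4 of them are shown, because they hold or lack the binding motifs of factors known to drive inflammatory chemokines: NF-κB, searched with its degenerate consensus of 10 letters, and the interferon-stimulated response element, searched as TTTC, any 2 bases and TTTC, each on both strands. Capitals mark the matches to either motif.
Cxcl1, chr5:90890995-90891244, + strand: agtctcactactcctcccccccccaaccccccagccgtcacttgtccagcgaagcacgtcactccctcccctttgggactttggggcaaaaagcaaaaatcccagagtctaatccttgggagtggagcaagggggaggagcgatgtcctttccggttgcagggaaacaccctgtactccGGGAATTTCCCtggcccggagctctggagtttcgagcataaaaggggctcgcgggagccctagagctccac
Cxcl10, chr5:92348890-92349139, - strand: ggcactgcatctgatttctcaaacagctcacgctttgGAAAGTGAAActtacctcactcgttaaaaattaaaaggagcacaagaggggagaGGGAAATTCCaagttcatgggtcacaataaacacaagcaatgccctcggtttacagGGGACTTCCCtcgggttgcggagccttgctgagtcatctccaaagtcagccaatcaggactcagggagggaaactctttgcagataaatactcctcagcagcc
Ccl9, chr11:83578637-83578886, - strand: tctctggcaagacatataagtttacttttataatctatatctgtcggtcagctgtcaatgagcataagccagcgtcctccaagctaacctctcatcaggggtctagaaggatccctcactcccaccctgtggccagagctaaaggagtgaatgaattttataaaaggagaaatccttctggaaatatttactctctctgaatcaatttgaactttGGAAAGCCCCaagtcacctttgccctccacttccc
Cxcl12, chr6:117168285-117168534, + strand: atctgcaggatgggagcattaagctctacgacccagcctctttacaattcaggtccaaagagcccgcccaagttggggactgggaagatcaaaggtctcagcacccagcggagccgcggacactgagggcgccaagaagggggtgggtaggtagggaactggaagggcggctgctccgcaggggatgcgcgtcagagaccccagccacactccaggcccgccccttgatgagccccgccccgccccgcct

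The NF-κB consensus was found in 3 of the 7 sequences, against 3.75% of the 27025 RefSeq sequences of the same length. Cxcl1 held it on both strands, in matches that overlap and together span bases 71 to 61 before the start. Cxcl10 held 2 separate NF-κB matches, at bases 159 to 150 and 103 to 94, and Ccl9 held 1, at bases 35 to 26. The interferon element was found in Cxcl10 alone of the 7, at bases 213 to 204, and in 3.04% of all sequences. The STAT motif TTCNNNGAA was found in none of the 7 and in 7.18% of all, and TATAAA in 3 of 7, Ccl8, Ccl9 and Cx3cl1, and in 12.97% of all. Neither the NF-κB nor the interferon motif matched in Cxcl12, Cx3cl1, Ccl6 or Ccl8. These are matches of letters within 250 bases and were not tested as binding sites.

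Compared per kilobase of exon, Ccl11 (eotaxin, the ligand of the eosinophil receptor Ccr3) had the highest mean level over the 20 muscles, 10.3 ± 6.39 CPM per kb (SD). Cxcl12, the homeostatic ligand of Cxcr4 and Ackr3, followed at 7.07 ± 1.06 CPM per kb. Ccl6 was at 5.28 ± 3.63, Ccl8 at 4.59 ± 3.64, Ccl7 at 3.42 ± 3.76, Ccl9 at 2.98 ± 2.23 and Ccl2 at 2.35 ± 2.16 CPM per kb. The lowest mean levels per kb were those of Cxcl10 (1.57 ± 1.07), Cx3cl1 (0.67 ± 0.25) and Cxcl1 (0.56 ± 0.51). In each of the 9 neighbouring pairs of this order the mean difference was below the SD of the difference over muscles, so no neighbours were separated by more than their spread. For example, Ccl11 exceeded Cxcl12 in only 11 of 20 muscles. Exon lengths were the union of all annotated exons (8176 bases for Cxcl12, 511 for Ccl8), which lowers the level per kb of a gene with many transcripts.

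The spread between muscles differed widely among the 10. Cxcl12 varied least, with a coefficient of variation of 15.01% and a 1.76-fold range between the lowest and highest of the 20 muscles. Cx3cl1, the membrane-bound ligand of Cx3cr1, came next at 36.9% and a 3.33-fold range. The other 8 had coefficients of variation of 62.3% (Ccl11) to 110.1% (Ccl7). Ccl7, a monocyte chemoattractant, ranged 50.2-fold, from 0.27 CPM in Secretome 6 to 13.8 CPM in Control 3. Cxcl1, a neutrophil chemoattractant and ligand of Cxcr2, ranged 65.3-fold, but on counts of only 1 to 68 reads, so its lowest values carry large counting error.

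**Figure D1:**
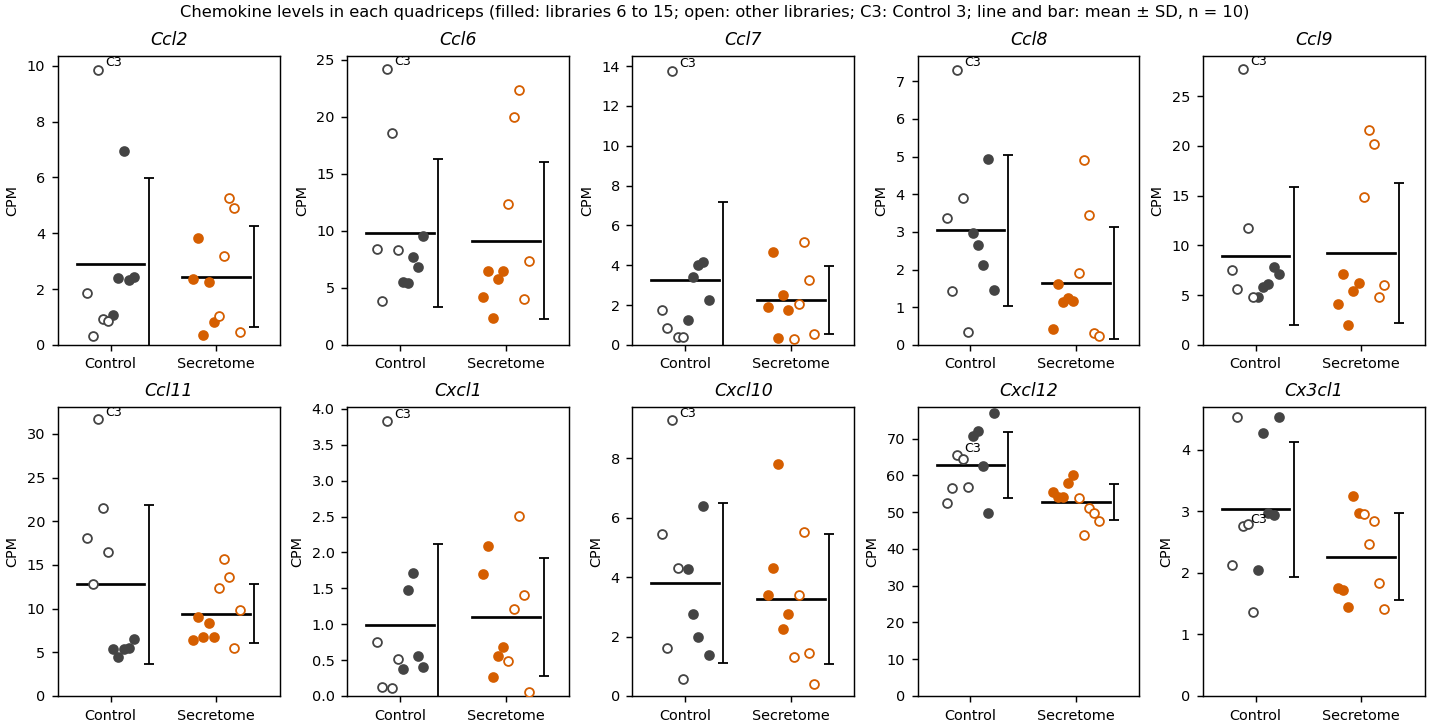
Level of each chemokine in CPM (vertical axis, linear, from 0) in each of 10 control and 10 secretome-treated muscles. Filled points are libraries 6 to 15, open points the others, horizontal lines the group means and bars ± SD (cut at 0). The groups overlap in all 10 genes, a count that was not made over all genes. Control 3 is the highest muscle in 8 of the 10.

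The main question of the design is whether these genes differed between secretome-treated and control muscle 3 h after injection. None of the 10 chemokines passed a 5% false discovery rate in edgeR's quasi-likelihood test, in which 0.00691% of the 14471 genes tested passed (1 gene). DESeq2 passed 0 of the 10 as well, where 1.25% of its tested genes passed. At an unadjusted p under 0.05, 1 of the 10 was called, Cxcl12, against 15.7% of all genes tested. The groups overlapped in all 10 genes, but overlap was not counted over all genes, so this says nothing particular about the chemokines. Of the 10, 8 had a log2 fold change below 0, against 55.9% of all genes, and their median was -0.24 against -0.03 for all genes. Many 95% intervals were wide. A change of more than 2-fold lower lies within those of Ccl2 (-1.37 to 0.90), Ccl7 (-1.75 to 0.70) and Ccl8 (-1.88 to 0.11). The same holds for Ccl11 (-1.14 to 0.27) and Cxcl10 (-1.14 to 0.70), and more than 2-fold higher lies within that of Cxcl1 (-0.99 to 1.31). Neither lies within those of Ccl6 (-0.93 to 0.72), Ccl9 (-0.80 to 0.91), Cxcl12 (-0.42 to -0.08) and Cx3cl1 (-0.87 to 0.03).

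Cxcl12, which retains leukocytes and guides progenitor cells through Cxcr4, showed the smallest p. In control muscle it ran from 49.7 CPM (Control 9) through a median of 63.6 to 76.9 CPM (Control 10), and in secretome-treated muscle from 43.8 (Secretome 7) through 53.9 to 60.0 CPM (Secretome 5). All 10 secretome-treated muscles lay below the control median, while 4 controls (Control 1, 2, 5 and 9) lay below the highest secretome-treated muscle. The means were 62.8 ± 8.91 and 52.8 ± 4.84 CPM (SD, n = 10 each). Its log2 fold change was -0.25 (SE 0.084, 95% interval -0.42 to -0.08, p = 0.00643, edgeR adjusted p = 0.187), which did not pass the false discovery rate. When any single muscle was left out, the log2 fold change stayed between -0.28 and -0.21, with unadjusted p from 0.00181 to 0.0166 and adjusted p of at least 0.153. Its value within libraries 6 to 15 was -0.23 (95% interval -0.47 to 0.02, p = 0.0691, adjusted p = 0.530), on 49.7 to 76.9 CPM in control and 54.0 to 60.0 CPM in secretome-treated muscle. In the other libraries, where range and treatment cannot be told apart, it was -0.27. The difference between these effects was 0.03 ± 0.15 (SE, edgeR adjusted p = 0.967).

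**Figure D2:**
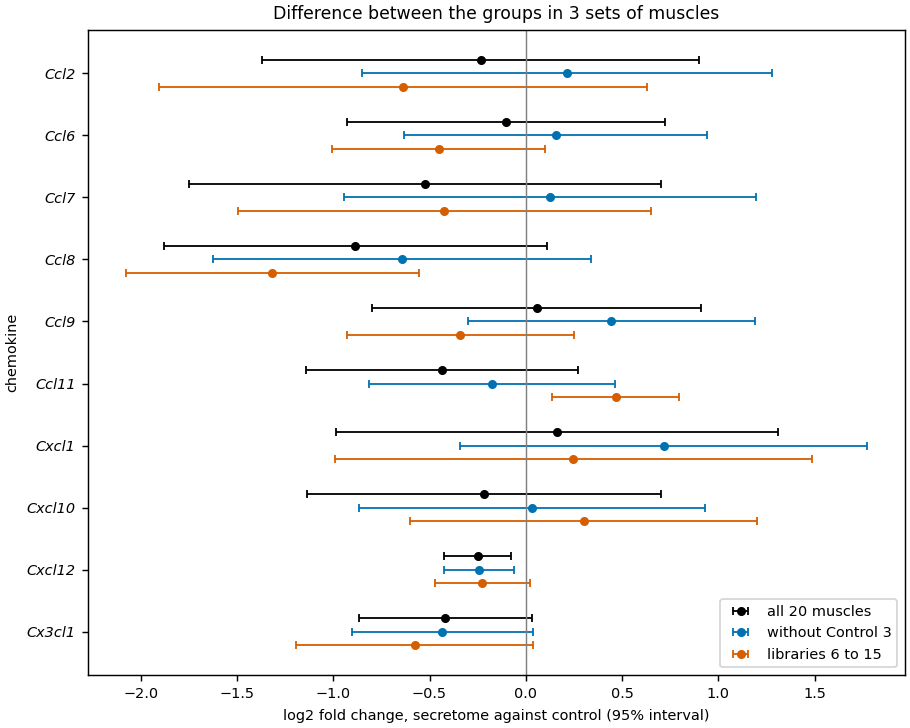
Log2 fold change of secretome against control (horizontal axis; 0 is no difference) for each chemokine, with 95% intervals, over all 20 muscles, without Control 3 and within libraries 6 to 15. The interval of Cxcl12 is the narrowest and lies near -0.25 in the 3 sets, whereas Ccl11 is at -0.44 over all muscles and at 0.47 within libraries 6 to 15.

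Ccl2, Ccl7 and Ccl8 are CC chemokines of 1 cluster on chromosome 11 that draw monocytes; Ccl2 acts through Ccr2 and is released by many stromal cells and macrophages. Control values of Ccl2 ran from 0.31 (Control 2) through a median of 2.10 to 9.84 CPM (Control 3), and secretome-treated values from 0.36 (Secretome 3) through 2.31 to 5.25 CPM (Secretome 8). Its log2 fold change of -0.23 (95% interval -1.37 to 0.90, p = 0.671) became 0.22 without Control 3 and was -0.64 (p = 0.292) within libraries 6 to 15. Ccl7 behaved alike in its spread: 0.40 (Control 5), 2.01 and 13.8 CPM (Control 3) in control, and 0.27 (Secretome 6), 1.96 and 5.15 CPM (Secretome 8) in secretome-treated muscle, as lowest, median and highest. The medians of Ccl7 differed by far less than its range, and its log2 fold change was -0.52 (p = 0.384) with Control 3, 0.12 (p = 0.811) without it and -0.42 (p = 0.409) within libraries 6 to 15.

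Ccl8, in mice a ligand of Ccr8, had the lowest log2 fold change of the 10. It ran from 0.34 (Control 5) through 2.81 to 7.31 CPM (Control 3) in control muscle and from 0.23 (Secretome 10) through 1.21 to 4.90 CPM (Secretome 7) in secretome-treated muscle. The secretome-treated muscle was below the control median in 8 of 10. The log2 fold change over all 20 muscles was -0.89 (SE 0.48, p = 0.0787, adjusted p = 0.372), and without Control 3 it was -0.64 (p = 0.188). The unadjusted p was under 0.05 without Control 5 (0.0320), Secretome 7 (0.0141) or Secretome 8 (0.0407), with adjusted p of at least 0.242. In libraries 6 to 15 the 5 controls held 2.97, 2.65, 2.12, 4.94 and 1.45 CPM and the 5 secretome-treated muscles 0.43, 1.61, 1.13, 1.25 and 1.17 CPM, with only Control 10 and Secretome 2 overlapping. That difference was -1.32 (SE 0.36, 95% interval -2.08 to -0.56, p = 0.00232, adjusted p = 0.405 in edgeR and 0.0890 in DESeq2), and it was called at an unadjusted p under 0.05 but not past the false discovery rate. Leaving out any 1 of these 10 muscles gave -1.48 to -1.02, with edgeR adjusted p of at least 0.248. The summed level of 6 macrophage markers in the same libraries was 72.2 to 145.1 CPM in control and 42.8 to 79.1 CPM in secretome-treated muscle. Its part in the Ccl8 difference was not tested.

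Ccl6 and Ccl9 are neighbouring genes of rodents that signal through Ccr1 and are made largely by myeloid cells. Ccl6 was lowest in Control 2 (3.85 CPM) and Secretome 3 (2.37 CPM), had medians of 8.00 and 6.48 CPM, and peaked at 24.2 CPM (Control 3) and 22.4 CPM (Secretome 8). Its log2 fold change was -0.10 (SE 0.40, p = 0.7996). Ccl9 was lowest in Control 5 (4.82 CPM) and Secretome 3 (1.96 CPM), had medians of 6.61 and 6.13 CPM, and peaked at 27.7 CPM (Control 3) and 21.6 CPM (Secretome 7). Its log2 fold change was 0.06 (SE 0.41, p = 0.892). Control 3, Secretome 7 and Secretome 8 held ranks 1 to 3 of both genes, and Control 4 and Secretome 6 held ranks 4 and 5. In libraries 6 to 15, which hold none of these muscles, Ccl6 spanned 5.40 to 9.58 CPM in control and 2.37 to 6.52 CPM in secretome-treated muscle. Ccl9 spanned 4.83 to 7.83 CPM in control and 1.96 to 7.15 CPM in secretome-treated muscle. The log2 fold changes there were -0.45 (p = 0.1003) and -0.34 (p = 0.235).

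Ccl11 gave opposite differences within libraries 6 to 15 and between libraries 1 to 5 and 16 to 20. Among controls, libraries 1 to 5 held 18.05, 12.8, 31.7, 21.5 and 16.4 CPM and libraries 6 to 10 held 5.34, 4.49, 5.36, 5.44 and 6.56 CPM, with no overlap between them. Among secretome-treated muscles, libraries 11 to 15 held 6.38, 9.08, 6.79, 8.30 and 6.72 CPM and libraries 16 to 20 held 12.3, 15.6, 13.7, 5.505 and 9.90 CPM. The secretome-treated ranges overlapped only through Secretome 9, at 5.505 CPM. Over all 20 muscles the log2 fold change was -0.44 (SE 0.34, p = 0.213, adjusted p = 0.537). Within libraries 6 to 15 it was 0.47 (SE 0.15, p = 0.00925, adjusted p = 0.447), with 4 of 5 secretome-treated muscles above every control and 0.39 to 0.55 when any 1 muscle was left out. In the other libraries, where range and treatment cannot be told apart, it was -0.82 ± 0.23 (SE). The difference between the 2 effects was 1.27 (SE 0.34, p = 0.00105, adjusted p = 0.165), past an unadjusted p of 0.05, as were 11.1% of all genes, but not past the false discovery rate, as were 0.0553%. Without Control 3 it was 1.05 (adjusted p = 0.231), and 3 of the 10, Ccl2, Ccl9 and Ccl11, had an unadjusted p under 0.05, against 11.2% of all genes, with 0 of 10 past the false discovery rate, against 0.0138%.

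**Figure D3:**
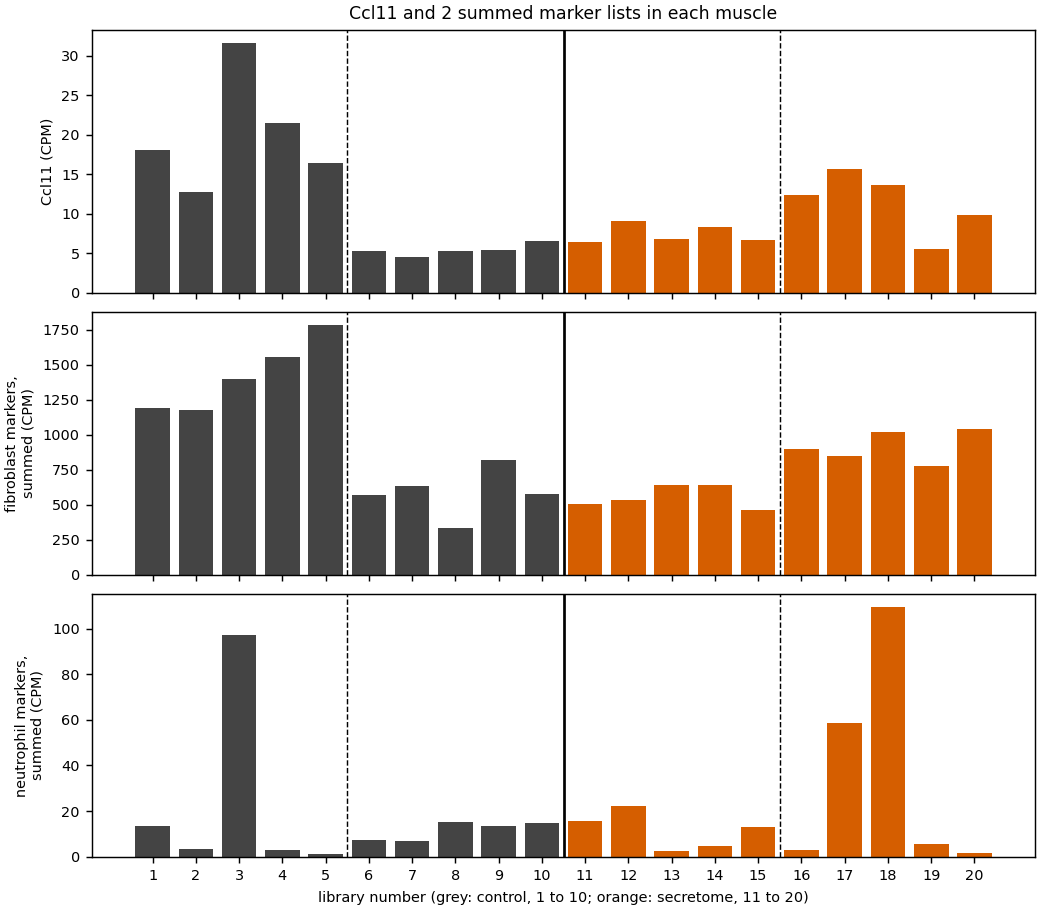
Ccl11 and the summed levels of 6 fibroblast and 6 neutrophil markers (CPM, linear axes from 0) in each muscle in order of library number, with grey bars for control and orange for secretome. Ccl11 and the fibroblast markers are high in libraries 1 to 5, and the neutrophil markers are high in libraries 3, 17 and 18.

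Fibroblast markers moved with Ccl11 across the library ranges. The sum of Pdgfra, Dcn, Lum, Col1a1, Dpt and Gsn was 1177 to 1786 CPM in libraries 1 to 5, 333 to 817 in libraries 6 to 10, 465 to 645 in libraries 11 to 15 and 778 to 1045 in libraries 16 to 20. Within libraries 6 to 15, where Ccl11 was higher in secretome-treated muscle, the sums of the 2 treatments overlapped, though Lum (lumican) alone was higher at an unadjusted p (log2 fold change 0.60, p = 0.00905). The part of these cells in the Ccl11 values was not tested. Markers of eosinophils, the cells drawn by Ccl11, were at or near 0: Epx, Prg2, Siglecf and Ccr3 together reached at most 0.64 CPM in any muscle, and each of the 4 had 0 counts in at least 1 muscle.

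Cxcl1 was the lowest of the 10 in CPM. It ran from 0.12 (Control 4) through 0.53 to 3.82 CPM (Control 3) in control muscle and from 0.06 (Secretome 10) through 0.95 to 2.51 CPM (Secretome 8) in secretome-treated muscle. Although 7 of 10 secretome-treated muscles exceeded the control median, the groups overlapped over nearly their whole range. Its log2 fold change was 0.16 (SE 0.55, p = 0.772) over all muscles, 0.72 (SE 0.51, p = 0.173) without Control 3 and 0.25 (p = 0.675) within libraries 6 to 15.

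Cxcl10, the interferon-induced ligand of Cxcr3, ran from 0.57 (Control 5) through 3.51 to 9.28 CPM (Control 3) in control and from 0.41 (Secretome 10) through 3.09 to 7.82 CPM (Secretome 3) in secretome-treated muscle. Secretome 3 and Secretome 10 were at opposite ends for Cxcl10, whereas both were among the lowest for Ccl2. The log2 fold change was -0.22 (SE 0.44, p = 0.630), 0.03 without Control 3 and 0.30 (p = 0.482) within libraries 6 to 15.

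Cx3cl1, which binds Cx3cr1-bearing monocytes and macrophages, had Control 3 only at rank 11 of the 20 muscles. Control values ran from 1.36 (Control 5) through 2.87 to 4.53 CPM (Control 2), and secretome-treated values from 1.41 (Secretome 10) through 2.16 to 3.24 CPM (Secretome 4). In 7 of 10 secretome-treated muscles it was below the control median. The log2 fold change was -0.42 (SE 0.22, 95% interval -0.87 to 0.03, p = 0.0668, adjusted p = 0.351), -0.43 without Control 3 and -0.58 (p = 0.0633) within libraries 6 to 15. Each left-out muscle kept it negative, between -0.50 and -0.34, with unadjusted p from 0.0215 to 0.139. The p was under 0.05 without Control 1, 5 or 6 or Secretome 4 or 5, each with an adjusted p of at least 0.213.

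Control 3 ranked first of the 20 muscles in 8 of the 10 chemokines and 4th in Cxcl12. Secretome 8 ranked among the first 3 in 5 of them, and Secretome 10 among the last 3 in 6. Without Control 3, 4 of the 10 log2 fold changes were below 0, against 54.8% of all genes, and their median was 0.08. Ccl2, Ccl6, Ccl7 and Cxcl10 moved from below to above 0. Cxcl12 alone had an unadjusted p under 0.05, against 11.3% of all genes, and 0 of 10 passed the false discovery rate, against 0.0138%. With Control 3 kept and Secretome 8 left out, 10 of 10 were below 0, a fit whose share over all genes is not given here. Within libraries 6 to 15, which do not hold Control 3, 7 of 10 were below 0, against 52.1%, with a median of -0.38 against -0.01 for all genes. There, 2 of the 10, Ccl8 (lower) and Ccl11 (higher), had an unadjusted p under 0.05, against 9.95% of all genes (4.92% lower and 5.02% higher), and 0 of 10 passed the false discovery rate, which 0% of all genes passed in edgeR and 0.239% in DESeq2.

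**Figure D4:**
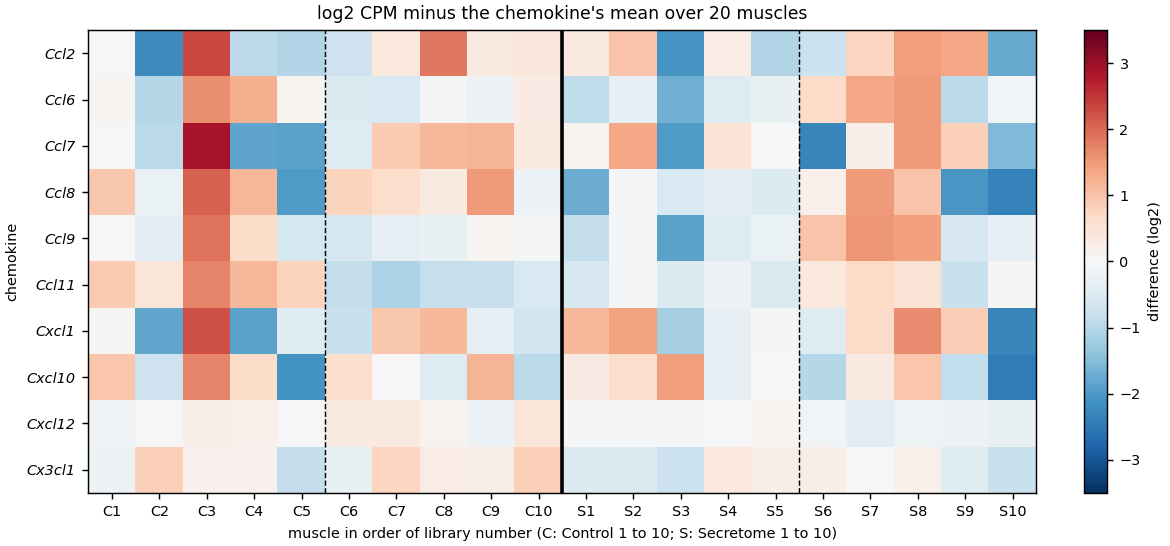
Log2 CPM of each chemokine (rows) in each muscle (columns, in order of library number) minus its mean over the 20 muscles; red is above and blue below the mean. The solid line parts control from secretome and the dashed lines mark libraries 6 to 15. Control 3 is above the mean in all 10 rows and the highest muscle in 8 of them, and the row of Cxcl12 is pale throughout.

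Neutrophil markers were high in some, but not all, of the muscles that were high in chemokines. The sum of S100a8, S100a9, Csf3r, Retnlg, Cxcr2 and Mmp8 was 97.2 CPM in Control 3, 109.6 in Secretome 8 and 58.7 in Secretome 7, and at most 22.2 CPM in each of the other 17 muscles. Control 4, whose summed chemokine level of 129 CPM was exceeded only by Control 3 (196) and Secretome 8 (132), had a neutrophil sum of 2.80 CPM. Cxcl12 alone gave 64.6 CPM of the sum in Control 4. That muscle ranked 2 of 20 in Ccl11 and 4 in Ccl6 and Ccl8, but only 15 in Ccl2, 17 in Ccl7 and 19 in Cxcl1. Of the 6 neutrophil genes, 5 had 0 counts in at least 1 muscle. The macrophage sum was also highest in Control 3 (205 CPM), followed by Control 4 (175) and Secretome 8 (164). The part of these cells in the chemokine values was not tested. S100a8 and S100a9, which form the neutrophil protein calprotectin, were at 1.43 ± 1.73 and 1.88 ± 2.28 CPM in control and 3.57 ± 5.90 and 4.84 ± 8.05 CPM in secretome-treated muscle (SD, n = 10), with edgeR adjusted p of 0.454 and 0.446. Of the 6 neutrophil genes 4 were tested, with 0 at an unadjusted p under 0.05 over all muscles, against 15.7% of all genes. Without Control 3, but with Secretome 7 and 8 kept, 3 were called, against 11.3%, and none of the 4 was below 0, against 54.8% of all genes. Within libraries 6 to 15, 0 of 4 were called, against 9.95% of all genes, with a median log2 fold change of 0.06.

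Ccl2, Ccl7 and Cxcl1 varied together, and so did Ccl6 and Ccl9. Of the 45 pairs of chemokines, 8 had both Pearson's r and Spearman's rho past an adjusted p of 0.05 over the 20 muscles (permutation test, two-sided, 100000 resamples, adjusted over the 45 pairs), all 8 positive. Ccl2 and Ccl7 gave r = 0.86 and rho = 0.86 (permutation p = 1e-05, the smallest it can give, and 2e-05; adjusted p = 0.00015 and 0.0003). Ccl2 and Cxcl1 gave r = 0.88 and rho = 0.84 (permutation p = 1e-05 for each; adjusted p = 0.00015 and 0.0003), and Ccl7 and Cxcl1 r = 0.80 and rho = 0.80 (permutation p = 2e-05 and 4e-05; adjusted p = 0.000225 and 0.00045). Ccl6 and Ccl9 gave r = 0.94 and rho = 0.83 (permutation p = 1e-05 and 2e-05; adjusted p = 0.00015 and 0.0003).

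These 4 pairs held when the 2 muscles farthest from the median of the first gene were left out (r = 0.87, 0.86, 0.80 and 0.90 in the order above) and within libraries 6 to 15 (r = 0.88, 0.73, 0.68 and 0.93). Ccl8 and Ccl9 gave r = 0.64 and rho = 0.75 (adjusted permutation p = 0.014 and 0.00207), with r = 0.68 without the 2 farthest muscles and 0.45 within libraries 6 to 15. Ccl6 with Ccl8 gave r = 0.57 and rho = 0.59 (adjusted permutation p = 0.044 and 0.0391), with r = 0.45 and 0.37 on the same smaller sets. Ccl6 with Ccl11 gave r = 0.69 and rho = 0.61 (adjusted permutation p = 0.00532 and 0.029) over all muscles and r = 0.59 without the 2 farthest, but r = -0.06 within libraries 6 to 15, where the relation did not hold. Ccl8 with Cxcl10 gave r = 0.72 and rho = 0.65 (adjusted permutation p = 0.00288 and 0.018) and r = 0.61 without the 2 farthest, but r = 0.19 and rho = 0.03 within libraries 6 to 15. Cxcl12 had no such partner among the other 9, its highest coefficient being r = 0.47 with Cx3cl1 (adjusted permutation p = 0.131; rho = 0.43, adjusted permutation p = 0.237).

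**Figure D5:**
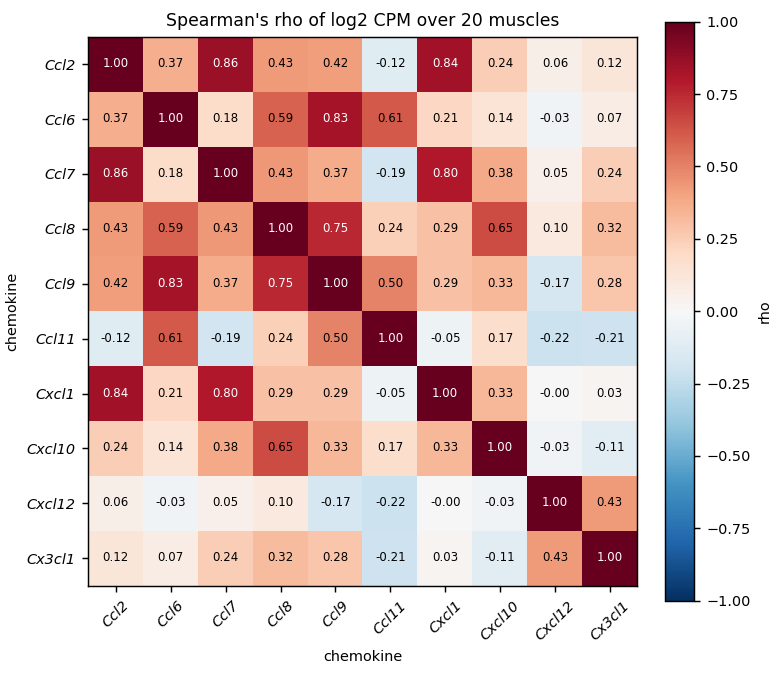
Spearman's rho of log2 CPM between each pair of chemokines over the 20 muscles (colour from -1, blue, to 1, red, with rho written in each cell). Ccl2, Ccl7 and Cxcl1 form a set with rho of 0.80 to 0.86, Ccl6 and Ccl9 are at 0.83, and Cxcl12 lies between -0.22 (Ccl11) and 0.43 (Cx3cl1).

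Among all tested genes with a symbol, those most like each chemokine over the 20 muscles were found by Spearman's rho, as a description. Cd44, the hyaluronan receptor and adhesion molecule, was the nearest gene both to Ccl2 (rho = 0.94) and to Cxcl1 (0.92). Fosl2, an AP-1 transcription factor, was near both Ccl7 (0.91) and Cxcl1 (0.90), and the kinase gene Map3k8 was near Cxcl1 (0.89). Sbno2 (0.92) and Mefv, the pyrin gene (0.90), were also near Ccl7, and Ptpn2 (0.92) and Lcn2 (0.90), a neutrophil lipocalin, near Ccl2. Ccl6 was nearest to the Fc receptor gene Fcgr3 (0.91), Ms4a6b (0.87) and the interferon-gamma receptor gene Ifngr1 (0.85), and Ccl9 to Wfdc17 (0.84), Ms4a6c (0.84) and Tgfbr2 (0.84). Ccl8 was nearest to Slc11a1 (0.89), Mpeg1 (0.89), which are macrophage genes, and the complement gene C4b (0.89).

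Ccl11 was nearest to Usmg5 (0.93), Lum (0.92) and Dstn (0.89). Cxcl10 was nearest to Tmem71 (0.86), Txn1 (0.84) and Gm38243 (0.80), Cxcl12 to AU020206 (0.86), Actn4 (0.80) and Trabd2b (0.80), and Cx3cl1 to Chrnd (0.77), a subunit of the acetylcholine receptor, Stom (0.75) and Agpat2 (0.73). Without Control 3 these coefficients lay between 0.76 and 0.93. All of them share the libraries and their depth.

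Of 9 receptors of these chemokines, 5 had enough counts to be tested (Ccr1, Ccr2, Cxcr2, Cxcr4 and Ackr3). Of these, 0 of 5 had an unadjusted p under 0.05 over all muscles, against 15.7% of all genes. The medians of their log2 fold changes and of all genes were 0.04 and -0.03. Ackr3, which scavenges Cxcl12, was the highest in CPM at 10.6 ± 4.14 in control and 9.15 ± 1.495 in secretome-treated muscle (adjusted p = 0.576), and Cxcr4, its signalling receptor, was at 2.24 ± 1.157 and 1.65 ± 0.58 CPM (adjusted p = 0.453). The monocyte receptor Ccr2 was at 6.00 ± 2.68 and 6.14 ± 3.92 CPM (adjusted p = 0.967) and Ccr1 at 2.24 ± 2.65 and 2.45 ± 3.29 (adjusted p = 0.932). Cxcr2, the neutrophil receptor, was at 1.48 ± 2.84 and 2.79 ± 4.76 CPM (adjusted p = 0.668), and its log2 fold change moved from 0.92 to 2.21 (unadjusted p = 0.0326) without Control 3. None of the 5 receptors had an unadjusted p under 0.05 within libraries 6 to 15, against 9.95% of all genes. Their log2 fold changes there were -0.15 (Cxcr4) to 0.14 (Cxcr2). Secretome 8 and Control 3 held the first 2 ranks in Ccr1, Ccr2 and Cxcr2.

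The other 4 receptors were too low for the filter. Cx3cr1, the receptor of Cx3cl1, was at 0.85 ± 0.40 CPM in control and 0.45 ± 0.13 CPM in secretome-treated muscle, and a fit without the filter gave a log2 fold change of -0.88 (p = 0.00616, adjusted p = 0.239) over all muscles and -1.10 (p = 0.0157) within libraries 6 to 15. Cxcr3 averaged 0.24 and 0.14 CPM, and Ccr3 and Ccr8 reached at most 0.284 and 0.125 CPM in any muscle.

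Of 27 other chemokine ligands, 11 were tested. All 11 had log2 fold changes below 0, against 55.9% of all genes, 5 of them with an unadjusted p under 0.05, against 9.21% called lower, and none reached the false discovery rate in edgeR. The median was -0.53 against -0.03 for all genes. Without Control 3, 10 of 11 were below 0, against 54.8% of all genes, and 4 were called, against 11.3%. In libraries 6 to 15, 9 of 12 were below 0, against 52.1% of all genes, and 5 were called lower, against 4.92%. Cxcl16, which is made by macrophages and binds Cxcr6, was at 2.22 ± 0.93 CPM in control and 0.97 ± 0.47 CPM in secretome-treated muscle (log2 fold change -1.18, SE 0.28, p = 0.000254, adjusted p = 0.109 in edgeR and 0.0102 in DESeq2). The log2 fold change within libraries 6 to 15 was -1.01 (p = 0.00932). Ccl27a, which has near-identical copies in the mouse genome so that its counts are uncertain, was at 4.29 ± 1.41 and 2.96 ± 0.68 CPM (adjusted p = 0.187). The most abundant, Cxcl14, was at 60.9 ± 40.5 and 43.9 ± 13.9 CPM (adjusted p = 0.407), and Ccl25 at 11.7 ± 2.66 and 11.1 ± 1.97 CPM (adjusted p = 0.784). The log2 fold change of Ccl25 was 0.30 within libraries 6 to 15. In the other libraries, where range and treatment cannot be told apart, it was -0.42 (edgeR p of the difference between these effects 0.00344, adjusted p = 0.204). Of 9 other chemokine receptors, led by Xcr1 and Cxcr5, 0 were tested, and in the fit without the filter Ccr7 and Ccr6 had the smallest p (adjusted p = 0.218 and 0.219) on means of at most 0.21 CPM.

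Atypical receptors bind chemokines without classical signalling. Of 5 genes in this group and its relatives, 4 were tested and 1 had an unadjusted p under 0.05, against 15.7% of all genes: Ackr1, carried by venules and red cells, at 3.502 ± 0.93 CPM in control and 2.67 ± 0.68 CPM in secretome-treated muscle (adjusted p = 0.273). Its unadjusted p was 0.031 over all muscles, 0.0774 without Control 3 and 0.0208 within libraries 6 to 15. Cmklr1 was at 13.7 ± 5.52 and 10.4 ± 3.01 CPM (adjusted p = 0.363) and Ccrl2 at 5.39 ± 2.25 and 5.34 ± 0.70 CPM (adjusted p = 0.974). Among 9 proteases, sheddases and heparan sulphate genes that cut or hold chemokines, 3 were lower and 1 (Adam10) was higher at an unadjusted p under 0.05, against 9.21% lower and 6.52% higher among all genes, and none reached the false discovery rate in edgeR. Hpse (heparanase) was at 1.88 ± 0.82 and 1.03 ± 0.24 CPM (log2 fold change -0.87, adjusted p = 0.136 in edgeR and 0.0426 in DESeq2) and Mmp14, a membrane metalloprotease, at 16.02 ± 6.48 and 10.6 ± 1.24 CPM (-0.60, adjusted p = 0.148). Hpse was at -0.81 (p = 0.0171) and Mmp14 at -0.16 (p = 0.206) within libraries 6 to 15. In the other libraries, where range and treatment cannot be told apart, Mmp14 was at -0.90 (p of the difference between these effects 0.00267, adjusted p = 0.199). The counts of the list were 1 lower and 0 higher within libraries 6 to 15, against 4.92% and 5.02% of all genes. Without Control 3 the count was 3 in either direction, against 11.3%. The most abundant were Sdc4 and Mmp2, with adjusted p of 0.816 and 0.322. Within libraries 6 to 15 their log2 fold changes were -0.40 and -0.07, and in the other libraries 0.54 and -0.63. The edgeR p of the difference between these effects was 0.0123 and 0.0273 (adjusted p = 0.292 and 0.361).

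Of 21 inducers and companions of chemokine expression, 17 were tested, with 4 lower and 0 higher at an unadjusted p under 0.05, against 9.21% lower and 6.52% higher among all genes, and none within the false discovery rate. The adhesion molecules Vcam1 (4.78 ± 1.33 CPM in control, 3.29 ± 0.94 in secretome-treated muscle, adjusted p = 0.189) and Icam1 (8.39 ± 3.73 and 5.70 ± 1.43 CPM, adjusted p = 0.246) had the smallest p. In libraries 6 to 15 their log2 fold changes were -0.72 (p = 0.00676) and -0.58 (p = 0.00248). There, 5 of 17 genes of the list were called lower, against 4.92% of all genes, with 15 of 17 below 0, against 52.1%. Without Control 3, 1 of 17 was called, against 11.3% of all genes. In that fit Vcam1 was at -0.46 (p = 0.0176) and Icam1 missed the threshold (-0.40, p = 0.0629). The transcription factors Jun and Cebpb, the most abundant of the list, had log2 fold changes of 0.01 and -0.04 (adjusted p = 0.983 and 0.947).

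The macrophage markers were all below 0 over all muscles and in libraries 6 to 15, against 55.9% and 52.1% of all genes. Over all muscles 4 of 6 had an unadjusted p under 0.05, as did 4 of 6 in libraries 6 to 15, against 9.21% and 4.92% of all genes called lower. None reached the false discovery rate in edgeR. Csf1r, the macrophage growth factor receptor, was at 19.98 ± 7.23 and 11.8 ± 4.39 CPM (log2 fold change -0.76, SE 0.22, adjusted p = 0.150 in edgeR and 0.0455 in DESeq2), and Adgre1 at 5.99 ± 2.16 and 3.40 ± 1.33 CPM (-0.82, SE 0.24, adjusted p = 0.153). Cd68 (-0.25, adjusted p = 0.713) and Mrc1 (-0.11, adjusted p = 0.889, and 0.04 without Control 3) lay nearer 0, and Lyz2 was at -0.58 (adjusted p = 0.299; unadjusted p = 0.0424, and 0.115 without Control 3). Without Control 3, 3 of the 6 macrophage genes were called, against 11.3% of all genes. T and NK cell genes were scarce: Cd3e, Cd3g, Cd8a and Nkg7 together were at 0 to 5.12 CPM in control and 0 to 0.77 CPM in secretome-treated muscle, and in the fit without the filter Cd3e had adjusted p = 0.0886 (0.0114 in DESeq2).

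Endothelial markers, 1 of 6 with an unadjusted p under 0.05 against 15.7% of all genes, summed to 135 to 263 CPM. That gene was Vwf (von Willebrand factor), with a log2 fold change of -0.31 (p = 0.0454) over all muscles. In libraries 6 to 15 it was at -0.59 (p = 0.000615, adjusted p = 0.398 in edgeR and 0.0374 in DESeq2), and 2 of 6 endothelial genes were called lower, against 4.92% of all genes, with 6 of 6 below 0, against 52.1%. Mast cell, adipocyte and Schwann cell markers had 0 of 4, 0 of 3 and 0 of 3 genes with an unadjusted p under 0.05 over all muscles. Fibre markers had 0 of 6, against 15.7% of all genes. Within libraries 6 to 15, 1 of 3 adipocyte genes was called lower, against 4.92%. The part of any of these cells in the chemokine values was not tested.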

How the data were processed

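RNA of injected quadriceps was depleted of ribosomal RNA and sequenced in stranded libraries. The authors deposited whole-number counts of reads per gene, without normalization, in 20 columns, 1 per muscle; the submitters' processing notes name cutadapt 1.16, STAR 2.7.9a, featureCounts 1.6.3 and GRCm39. Groups, numbers and library numbers came from the sample labels, and 0 columns were unmatched. Totals were 13286983 to 22987237 counts per muscle; lengths, chromosomes and promoters are from GRCm38 annotation (GENCODE M21, RefSeq). One extraction label mentions myotubes, whereas the methods describe muscle tissue.

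Genes were filtered with filterByExpr, normalized with TMM and compared with the robust quasi-likelihood test of edgeR 4.0.16 (R 4.3.3), with Benjamini-Hochberg adjustment over all tested genes at a 5% false discovery rate. Each standard error is the fold change (log2) divided by the square root of its F statistic. Log2 CPM used a prior count of 2. Alternatives were DESeq2 1.42.0, voom of limma 3.58.1 with quality weights, RLE scaling, no filter, a replicate block, a term for the library ranges and each muscle left out. The step was tested on simulated counts, which held no shift between library ranges and no outlying muscle. That test cannot show how the step behaves where these are present. Mice were separate animals, so p-values measure the spread between mice.

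The chemokines, lists and comparisons were chosen with earlier results of these data known. The genes named were all members and receptors, the 2 of each other list with the smallest p and the 2 with the highest CPM, the first 3 of each marker list and the 3 nearest genes of each member. Full marker lists and genes with few counts are named where a count needed it, after their values were seen. An item withheld from the text is not reported here.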

Additional observations from a re-analysis of the deposited data

Results flagged for a closer look

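Each of the 10 chemokines was examined for a single muscle far from the rest, in each treatment, with Dixon's test for 10 values; of 20 such groups, chance flags about 1. One was flagged: Ccl9 in control muscle, where Control 3 had a log2 CPM of 4.80 and the next highest control 3.57. Without Control 3 the log2 fold change of Ccl9 moved from 0.06 to 0.44 (edgeR adjusted p = 0.642). The neutrophil marker sum of the same muscle was 97.2 CPM, and its part in the Ccl9 value was not tested.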

How the results depend on the processing

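None of the 10 chemokines passed the false discovery rate under any alternative, over all 20 muscles, within libraries 6 to 15 or in the difference of effects. Over all muscles, 1 gene passed in edgeR, 216 in DESeq2, 3 with voom and 0 with a term for the library ranges; leaving out 1 muscle gave 0 (for example without Control 6) to 15 (without Control 5). Within libraries 6 to 15, 0 genes passed in edgeR, 37 in DESeq2 and 11 without the filter, and leaving out 1 muscle gave 0 to 2 (without Control 8). The difference of effects passed in 8 genes and in 2 without Control 3. The cause of these changes was not tested.

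Several chemokines changed sign, each with a p that missed the threshold in both fits. With voom, Ccl11 was at 0.0662 and Cxcl10 at 0.0266 on the log2 scale. With the library ranges as a term, Ccl9 was at -0.35, Ccl11 at 0.46 and Cxcl10 at 0.29. Leaving out 1 muscle gave -0.43 to 0.22 for Ccl2, -0.36 to 0.16 for Ccl6, -0.75 to 0.12 for Ccl7, -0.17 to 0.44 for Ccl9, -0.0648 to 0.72 for Cxcl1 and -0.45 to 0.0337 for Cxcl10. The highest value was without Control 3 in all 6. Within libraries 6 to 15, Cxcl1 ran from -0.16 (without Secretome 2) to 0.59 and Cxcl10 from -0.0817 (without Secretome 3) to 0.66. Without Control 3 the difference of effects changed sign for Ccl7 (-1.82), Cxcl1 (-1.34) and Cxcl12 (-0.0103). Cxcl12, Ccl8 and Cx3cl1 were below 0 in every fit of both treatment comparisons. Within libraries 6 to 15 an unadjusted p under 0.05 was also seen for Cxcl12 with voom (0.00725) or without Control 9 (0.00272), and for Cx3cl1 without the filter (0.0311) or without Control 6 (0.0241), Secretome 4 (0.0260) or Secretome 5 (0.0379).

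Same-numbered muscles of the 2 treatments did not deviate together (correlations -0.24 to 0.22, 2 of 10 above 0.1). This cannot decide whether they were paired, because each number falls in different library ranges in the 2 treatments. With the replicate block 0 genes passed over all muscles and Ccl2 was at 0.00855 on the log2 scale. No paired analysis was possible within libraries 6 to 15 because the treatments share no replicate number there. Counts of 1 to 68 limit Cxcl1, and 4 to 130 limit Ccl8.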
